A study of Mus musculus with 12 samples.

Results

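The mitochondrial solute carriers of the Slc25 family were examined in mouse embryonic fibroblasts (MEFs) labelled as having or lacking Sirt3, the main NAD-dependent deacetylase of the mitochondrial matrix. Members were taken as the protein-coding genes of the deposited expression table whose symbol in the GRCm38 annotation was Slc25a followed by a number. This gave 47 genes of the 34866 in the table. Of these, 38 had a mean of at least 1 TPM (transcript abundance scaled by transcript length and library total) over the 12 libraries, among 12504 genes that reached this level. Genes of the same protein fold with other symbols, such as Ucp2, were left out by this rule and are described apart. Poly(A) RNA was sequenced from 4 groups of 3 libraries, namely male and female MEFs labelled Sirt3 wild-type (WT) or Sirt3 knock-out (KO). The WT embryos came from 129S1/SvImJ mice and the KO embryos from a Sirt3 knock-out strain given by its stock only. All groups shared isolation at embryonic day 13, immortalization by a stably transfected SV40 T-antigen plasmid, use at passage 6 and RNA extraction 48 h after seeding. Embryos were isolated one by one and the cells were then seeded into wells in triplicate, while the number of embryos or lines per group was not stated. Genotype, sex and cell line therefore cannot be told apart, and the p-values measure the spread between these libraries, which may be technical.

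The Y-linked transcripts followed the sex labels, as Ddx3y lay between 31.7 and 36.6 TPM in every male library and at or below 0.218 TPM in every female one. Kdm5d had the same order. Sirt3 mRNA was not lower in the libraries labelled KO. It stood at 6.59, 7.17 and 9.07 TPM in the male WT libraries, 8.88, 10.9 and 11 in the male KO, 7.40, 7.60 and 8.69 in the female WT and 7.57, 9.06 and 8.19 in the female KO, and its log2 fold change was 0.39 ± 0.14 (SE), adjusted p = 0.0981 in males and 0.06 ± 0.11 (SE), adjusted p = 0.772 in females (limma, Benjamini-Hochberg). The exons removed in the KO strain were not given in the sources used here, and a total over the gene cannot show the loss of single exons. The study also showed an immunoblot of Sirt3 protein, but its text does not describe the Sirt3 result. KO and WT below therefore mean the libraries so labelled. All 8 fibroblast markers were expressed in every group. Their summed level was higher in KO than in WT of the same sex, without overlap. It was 7918 to 8858 TPM in male WT, 10225 to 10715 in male KO, 6519 to 6686 in female WT and 8262 to 8556 in female KO. Col1a1 had means of 3184 TPM in male WT, 4807 in male KO, 2127 in female WT and 3227 in female KO. In males Col1a2 had means of 1303 (WT) and 1284 TPM (KO), and Vim 3109 and 3113 TPM. The other markers had higher means in KO in both sexes. The summed level of 5 epithelial markers was 76.0 to 77.8 TPM in male WT, 7.90 to 8.78 in male KO, 19.7 to 22.7 in female WT and 7.40 to 10.2 in female KO, most of it Krt19. Krt18 had means of 7.47 (WT) and 0.363 TPM (KO) in males and 4.18 and 0.950 TPM in females. Epcam had 1.94 and 0.356 TPM in males and 2.39 and 0.861 TPM in females, while Krt8 and Cdh1 had group means at or below 0.287 TPM. In 3 endothelial markers the sum was 4.58 to 5.68 TPM in female WT and at most 2.20 TPM elsewhere. Most of it was Kdr, while Pecam1 and Cdh5 had group means at or below 0.314 TPM. The part of these markers in the carrier differences was not tested, and in RNA from whole wells fewer cells of a type and less RNA per cell cannot be told apart.

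Carriers of this family lie in the inner mitochondrial membrane, and each moves or exchanges a small set of solutes between the cytosol and the matrix. The ADP/ATP carriers and the phosphate carrier feed the ATP synthase and export its product, and the aspartate/glutamate carriers work with the oxoglutarate/malate carrier in the malate-aspartate shuttle, which brings the reducing equivalents of cytosolic NADH into the matrix. Others import iron, glutathione, nucleotides and cofactors, and a few members sit in other membranes, such as Slc25a17 in peroxisomes.

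Transcripts of the 47 members were unequally distributed, and their total was nearly the same in every group. This total leaves out genes of the same fold with other symbols, such as Ucp2, which was higher in KO in both sexes (below). Mean levels over the 12 libraries were led by Slc25a5, the ADP/ATP carrier Ant2, at 645 TPM. Slc25a3, the phosphate carrier, followed at 543 TPM, Slc25a4, the ADP/ATP carrier Ant1, at 396 TPM and Slc25a39, a carrier needed for glutathione import into mitochondria, at 162 TPM. These 4 held ranks 1 to 4 in this order in every library, without overlap between neighbours. The fifth by mean was Slc25a17, at 65.9 TPM, but its rank moved between 5 and 8, and its levels overlapped those of Slc25a24 and Slc25a11. Beside the first 4, 24 members had means from 10 to 100 TPM, 10 from 1 to 10 TPM and 9 under 1 TPM. Slc25a5, Slc25a3 and Slc25a4 together made up 62.4% of the summed TPM of all 47 members in male WT, 60.9% in male KO, 61.9% in female WT and 63.6% in female KO. The sum itself was 2554 ± 29.1 TPM (SD, n = 3) in male WT, 2552 ± 3.95 in male KO, 2530 ± 7.78 in female WT and 2543 ± 32.5 in female KO, so that the group means lay within 1 SD of the widest group.

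**Figure D1:**
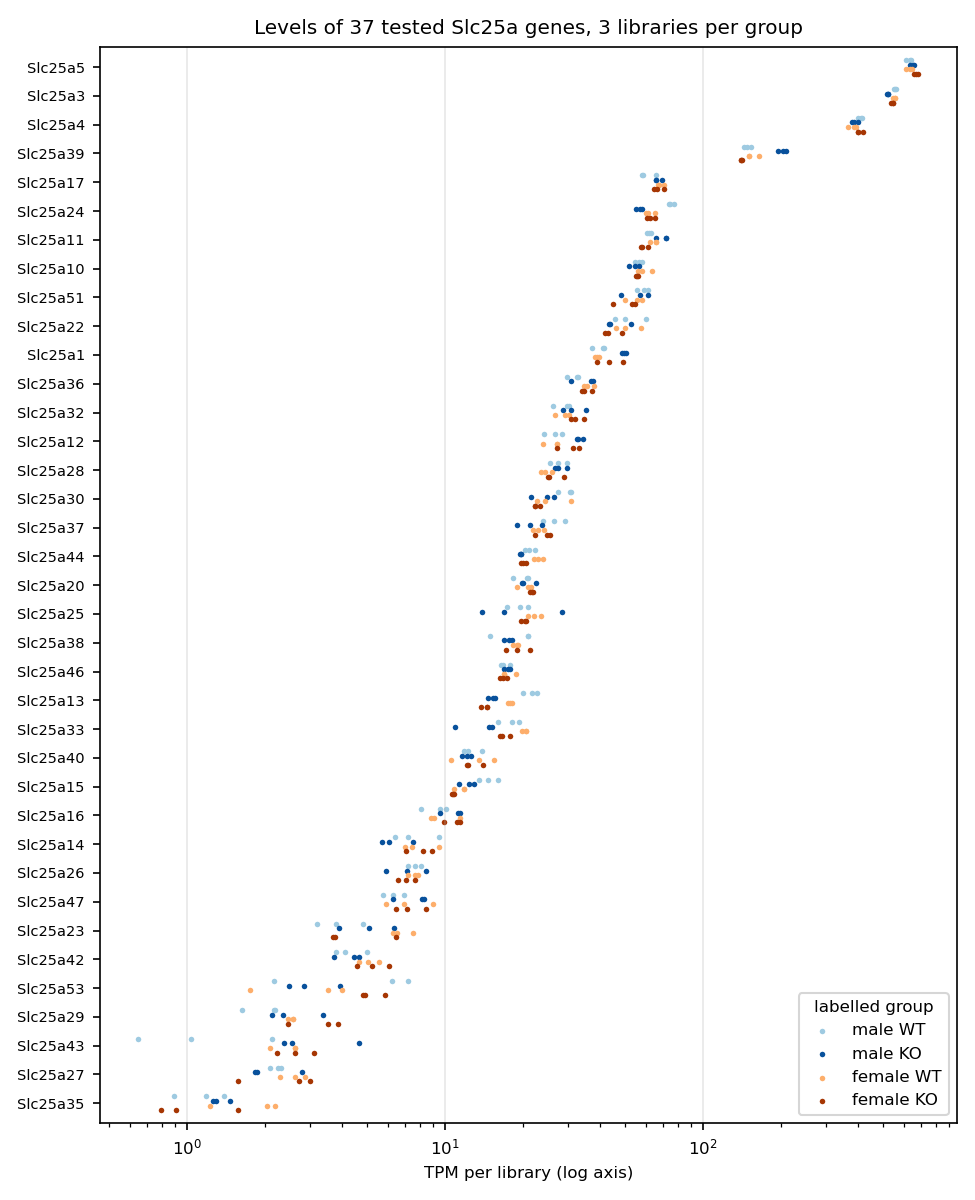
Level of the carriers tested and described here in every library, in TPM on a log axis, with genes in the order of their mean and 1 point per library coloured by group. Slc25a5, Slc25a3, Slc25a4 and Slc25a39 stand above all other carriers in each of the 12 libraries.

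Between the libraries labelled KO and WT the differences lay in single carriers. In males, Slc25a39, Slc25a12 and Slc25a1 rose (3 of 38, beside 10.7% of all genes) and Slc25a24, Slc25a13 and Slc25a3 fell (3 of 38, beside 10.9%) in KO against WT. These 6 were 15.8% of the 38 carriers tested, beside 21.6% of all 12504 genes (limma on log2(TPM + 1), adjusted p under 0.05 by Benjamini-Hochberg over all genes tested). In females, Slc25a13 fell and none of the 38 rose, which made 1 of 38 or 2.63%, beside 11.5% of all genes (5.63% higher and 5.84% lower). Neither share exceeded that of all genes, but the male one did with all 12 libraries in 1 fit (11 carriers or 28.9%, beside 26.4%) and with no filter on low values (12.8%, beside 10.4%). Without adjustment, 12 of the 38 carriers in males and 9 in females had p under 0.05 (limma), beside 4383 and 3399 of the 12504 genes. The median log2 fold change of the 38 carriers was -0.03 in both sexes, beside -0.02 over all genes, and their median absolute log2 fold change was 0.15 in males and 0.09 in females, beside 0.17 and 0.13 over all genes. In each sex 17 carriers lay above and 21 below 0. The sign was the same in males and females for 24 of the 38, or 63.2%, beside 61.0% of all genes. Among all genes called in females 49.1% were higher in KO, which became 59.3% with median-of-ratios scaling.

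The male and the female difference were set against each other in 1 fit over the 12 libraries (sex by genotype interaction). It passed for 3 carriers, Slc25a39, Slc25a11 and Slc25a24, or 7.89% of those tested, beside 13.0% of all genes. Slc25a39 and Slc25a11 had the higher KO minus WT difference in males (beside 6.70% of all genes) and Slc25a24 the lower one (beside 6.33%). The interaction of Slc25a13 was -0.17 ± 0.089 (SE), adjusted p = 0.280 (limma, Benjamini-Hochberg), so its fall in males and in females was not shown to differ. The same held for Slc25a12 and Slc25a1, with interactions of 0.11 and 0.14 and adjusted p of 0.645 and 0.472 (limma).

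**Figure D2:**
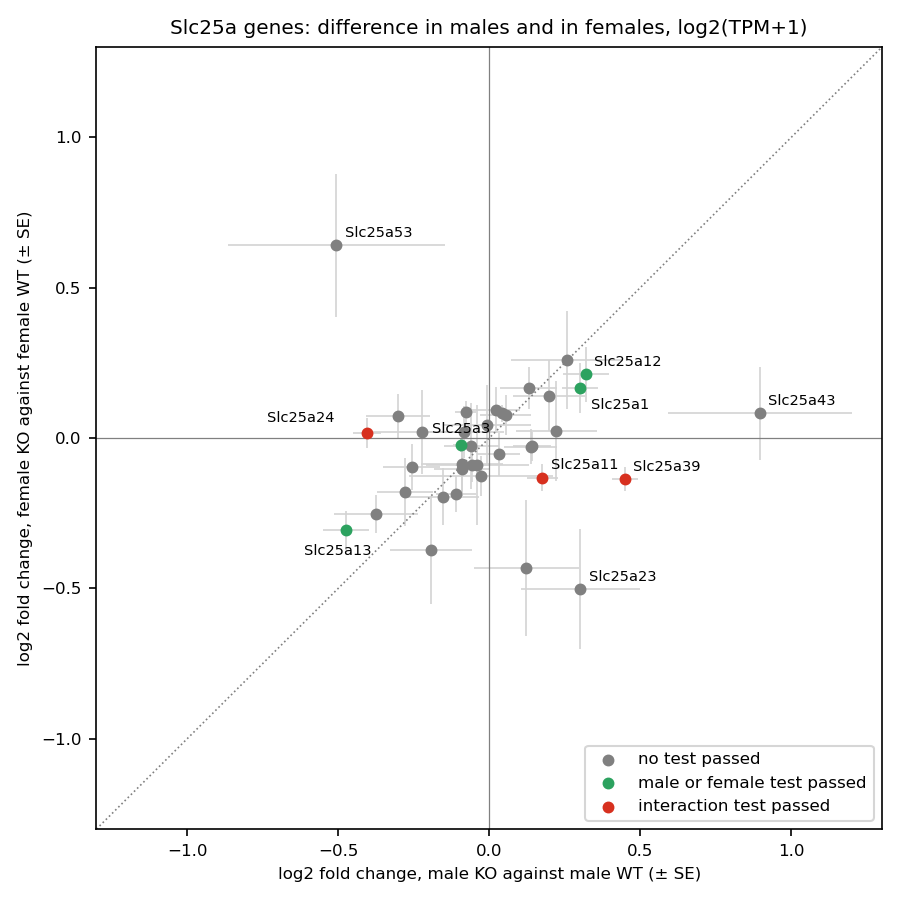
Log2 fold change of KO against WT on the log2(TPM + 1) scale in males (horizontal axis) and females (vertical axis) for the 38 carriers, with bars of 1 SE and the diagonal of equal change dotted. Slc25a39 and Slc25a11 lie right of 0 and below it, Slc25a24 lies left of 0 near the horizontal line, and Slc25a13 lies low on both axes.

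The stretches upstream of the annotated starts of Slc25a39, Slc25a24, Slc25a13 and Slc25a1 are shown because these 4 carriers passed the male test under every alternative tried. Sequences and start sites are those of RefSeq on GRCm38.p6, read 5′ to 3′ on the strand of the gene, without bases that GENCODE annotates as exon. Capitals mark matches on either strand to the CCAAT box (CCAAT or ATTGG), the GC box (GGGCGG or CCGCCC) and the E-box CACGTG. The stretch of Slc25a39 is chr11:102407545-102407767 (minus strand), which lies in the first intron of a longer annotated transcript of the same gene. Those of the others end at the base before the gene, at chr3:109122899-109123148 (plus strand) for Slc25a24, chr6:6217174-6217423 (minus strand) for Slc25a13 and chr16:17928220-17928469 (minus strand) for Slc25a1.
Slc25a39: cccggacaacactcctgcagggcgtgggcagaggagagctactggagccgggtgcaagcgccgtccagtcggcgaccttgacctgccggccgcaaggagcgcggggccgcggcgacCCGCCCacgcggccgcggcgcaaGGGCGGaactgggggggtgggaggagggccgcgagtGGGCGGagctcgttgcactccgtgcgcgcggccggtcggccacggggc
Slc25a24: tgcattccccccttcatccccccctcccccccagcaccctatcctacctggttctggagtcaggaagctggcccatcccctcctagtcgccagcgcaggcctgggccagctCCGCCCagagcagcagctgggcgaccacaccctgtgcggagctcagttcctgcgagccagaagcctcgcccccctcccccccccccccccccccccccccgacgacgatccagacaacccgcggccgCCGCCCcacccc
Slc25a13: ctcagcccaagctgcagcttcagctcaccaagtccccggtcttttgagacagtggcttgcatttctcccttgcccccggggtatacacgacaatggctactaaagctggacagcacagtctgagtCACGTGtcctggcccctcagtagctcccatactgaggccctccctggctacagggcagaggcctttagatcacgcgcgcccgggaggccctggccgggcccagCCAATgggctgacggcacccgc
Slc25a1: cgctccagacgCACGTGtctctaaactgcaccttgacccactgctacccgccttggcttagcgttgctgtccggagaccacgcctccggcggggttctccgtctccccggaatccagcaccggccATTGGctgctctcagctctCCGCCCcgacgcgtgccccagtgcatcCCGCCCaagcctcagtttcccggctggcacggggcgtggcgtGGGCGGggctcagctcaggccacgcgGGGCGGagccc
Slc25a39 held 3 GC boxes and Slc25a24 2, with no match to the other motifs. Slc25a13, on the other hand, held 1 CCAAT box and 1 E-box, and Slc25a1 held 1 CCAAT box, 4 GC boxes and 1 E-box. Within 250 bases upstream, a GC box was present in 32.7% of all 32851 promoters and in 32 of the 46 promoters of the 36 members with an entry (69.6%). A CCAAT box was present in 33.8% of all and in 21 of the 46 (45.7%), and the E-box in 6.02% and in 8 (17.4%). By gene, a GC box was present in 25 of the 36 members (69.4%). The set of all promoters was not limited to genes expressed in these cells, so the shares are not matched for level. A match of letters is a description and not a binding site.

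Among the carriers of adenine nucleotides and phosphate, Slc25a24 changed most in males. Slc25a24 (ENSMUSG00000040322.10, chr3:109123149-109168457, plus strand) encodes a calcium-regulated carrier that exchanges ATP-Mg for phosphate and so sets the adenine nucleotide pool of the matrix. It stood at 77.1, 74.2 and 74.3 TPM in the male WT libraries, 55, 58 and 56.9 in the male KO, 65.1, 61.5 and 60.0 in the female WT and 65.4, 62.5 and 61 in the female KO. All male KO libraries lay below all other libraries, and all male WT libraries above them, while the female groups overlapped. The log2 fold change was -0.40 ± 0.046 (SE), adjusted p = 0.00119 in males, a 0.753-fold level, and 0.02 ± 0.049 (SE), adjusted p = 0.861 in females, with a 95% confidence interval of -0.10 to 0.14 (limma, Benjamini-Hochberg). The difference between the sexes was -0.42 ± 0.064 (SE), adjusted p = 9.92e-04 (limma).

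Slc25a3 (ENSMUSG00000061904.12, chr10:91116574-91124059, minus strand), the carrier that brings phosphate to the ATP synthase, was at 552, 559 and 556 TPM in the male WT libraries, 522, 518 and 522 in the male KO, 547, 555 and 554 in the female WT and 536, 546 and 547 in the female KO. The male KO libraries lay below every other library, by a small margin. Its log2 fold change was -0.09 ± 0.026 (SE), adjusted p = 0.0445 in males, a 0.937-fold level, and -0.02 ± 0.023 (SE), adjusted p = 0.539 in females (limma, Benjamini-Hochberg). The male call was lost whichever of the 6 libraries was left out (adjusted p from 0.0832 to 0.120), with median-of-ratios scaling (0.206), with quantile normalization (0.0962), with no mean-variance trend (0.217) and with the replicate block (0.0855, limma in each).

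The ADP/ATP carriers did not pass in either sex. Slc25a5 (Ant2, chromosome X) stood at 638, 637 and 612 TPM in the male WT libraries, 655, 635 and 652 in the male KO, 637, 615 and 646 in the female WT and 682, 657 and 670.4 in the female KO. Female KO libraries all lay above the female WT ones, with a log2 fold change of 0.08 ± 0.029 (SE), adjusted p = 0.122 (limma), while the male groups overlapped (0.04, adjusted p = 0.391). Slc25a4 (Ant1, the form of heart and muscle) was at 415, 411 and 400.4 TPM (male WT), 400.1, 377 and 385 (male KO), 393, 366 and 385 (female WT) and 417, 398 and 399 (female KO). It was lower in all male KO than in all male WT libraries and higher in all female KO than in all female WT libraries, and none of these tests passed (males -0.08, adjusted p = 0.166, females 0.09, adjusted p = 0.177, interaction -0.16, adjusted p = 0.0512, limma). The interaction passed with a filter of 5 TPM (0.0494), quantile normalization (0.0179), the replicate block (0.0279) and without male KO replicate 1 (0.0377) or female WT replicate 1 (0.0436, limma in each). The share of Slc25a5 in the sum of both was 60.6% in male WT and between 62.3% and 62.6% in the other group means. Of the 31-base stretches of Slc25a5 transcripts, 49.4% also occur in 13 other genes, mostly processed pseudogenes of Slc25a5, so its level depends on how reads were divided among them. Those of them in the table were at or below 0.357 TPM in every library. Slc25a4 shares none.

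The other ATP-Mg/phosphate carriers varied more between libraries. Slc25a23 was at 3.20, 4.81 and 3.77 TPM (male WT), 5.06, 6.37 and 3.89 (male KO), 6.31, 7.52 and 6.52 (female WT) and 3.67, 6.45 and 3.75 (female KO). Its difference did not pass in males (0.30 on the log2 scale, adjusted p = 0.325) or females (-0.50, adjusted p = 0.166, limma), and without female KO replicate 2, its highest library in that group, the female value was -0.72 with an adjusted p of 0.0348 (limma). The interaction, 0.80 ± 0.29 (SE), adjusted p = 0.106, passed without that library (0.0265) and with the replicate block (0.0260, limma). Slc25a25 was at 19.6, 21.1 and 17.4 TPM (male WT), 16.9, 13.9 and 28.5 (male KO), 22.2, 23.5 and 20.9 (female WT) and 20.6, 20.4 and 19.8 (female KO). The lowest and the highest of these 12 values were both male KO libraries, and the female KO libraries lay below the female WT ones (-0.13, adjusted p = 0.272, limma).

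**Figure D3:**
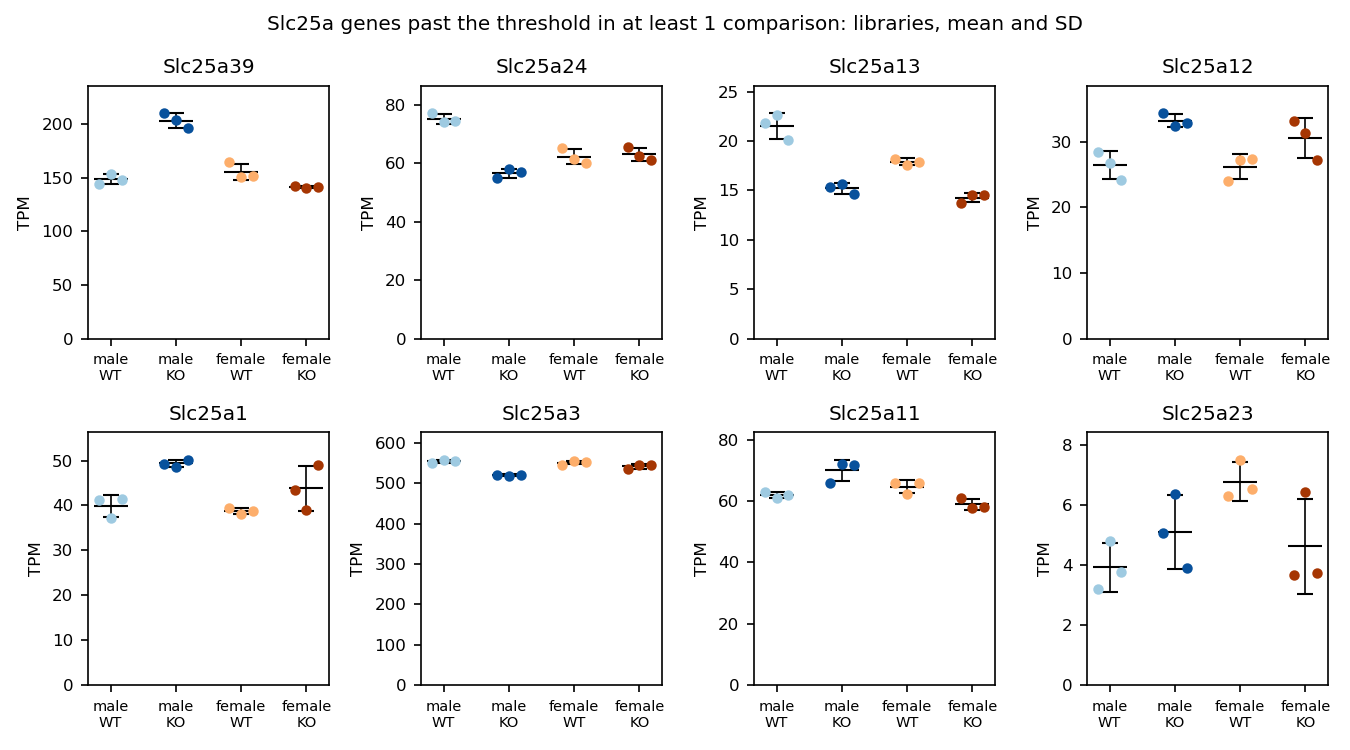
TPM in each library for the 8 carriers that passed at least 1 of the 5 comparisons, 1 panel per gene, with points for libraries, a line for the group mean and bars of 1 SD over 3 libraries. Male KO stands apart from the other 3 groups for Slc25a39, above them, and for Slc25a24 and Slc25a3, below them.

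In the carboxylate group, Slc25a1 rose in males. Slc25a1 (ENSMUSG00000003528.14, chr16:17925223-17928219, minus strand) exports citrate, the source of cytosolic acetyl-CoA for fatty acid and cholesterol synthesis. Its level was 41.1, 37.2 and 41.5 TPM in the male WT libraries, 49.3, 48.7 and 50.2 in the male KO, 39.5, 38 and 38.8 in the female WT and 43.4, 38.9 and 49 in the female KO. In males the groups did not overlap, and the log2 fold change was 0.30 ± 0.060 (SE), adjusted p = 0.0124, a 1.24-fold level. In females the groups overlapped, at 0.17 ± 0.084 (SE), adjusted p = 0.261 (limma, Benjamini-Hochberg). The 95% confidence interval of the female difference, -0.03 to 0.37, includes the male value.

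Slc25a11 (ENSMUSG00000014606.14, chr11:70644196-70647479, minus strand), the oxoglutarate/malate carrier, differed by sex in its response. It stood at 62.8, 60.8 and 61.8 TPM in the male WT libraries, 66, 72.2 and 71.8 in the male KO, 65.9, 62.4 and 65.7 in the female WT and 61, 57.6 and 58.2 in the female KO. The KO libraries lay above WT in males and below WT in females, without overlap in either. Neither difference passed alone (males 0.18 ± 0.052 (SE), adjusted p = 0.0526, females -0.13 ± 0.045 (SE), adjusted p = 0.111, limma), but the interaction did, at 0.31 ± 0.066 (SE), adjusted p = 0.00900 (limma). The male difference passed with median-of-ratios scaling (adjusted p = 0.0298), quantile normalization (0.0295), all 12 libraries in 1 fit (0.0156) and without male KO replicate 1 (0.0339, limma). Its transcripts share 7.37% of their 31-base stretches with the neighbouring Rnf167. The remaining carboxylate carriers did not pass. Slc25a10, the dicarboxylate carrier, was at 54.3, 58.2 and 56.4 TPM (male WT), 54.3, 51.5 and 56.5 (male KO), 57.9, 63.5 and 56 (female WT) and 55.9, 54.9 and 55.4 (female KO). Slc25a20, which imports acylcarnitines for fatty acid oxidation, was at 18.4, 20.8 and 20.9 TPM (male WT), 20.1, 22.5 and 19.9 (male KO), 21.6, 21 and 19.1 (female WT) and 21.3, 21.7 and 22 (female KO). For Slc25a10 all female KO libraries were below the female WT ones (-0.09, adjusted p = 0.343, limma), and the groups of Slc25a20 overlapped in both sexes.

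Of the aspartate/glutamate carriers, Slc25a13 fell in both sexes and Slc25a12 rose in males. Slc25a13 (ENSMUSG00000015112.15, chr6:6041218-6217173, minus strand), known as citrin and the liver form, stood at 21.8, 22.7 and 20.1 TPM in the male WT libraries, 15.3, 15.7 and 14.6 in the male KO, 18.2, 17.5 and 17.9 in the female WT and 13.8, 14.5 and 14.5 in the female KO. Every KO library lay below every WT library of either sex. The log2 fold change was -0.47 ± 0.076 (SE), adjusted p = 0.00552 in males, a 0.706-fold level, and -0.31 ± 0.064 (SE), adjusted p = 0.0279 in females, a 0.798-fold level (limma, Benjamini-Hochberg). The female call was lost without any of the 6 libraries, with adjusted p from 0.0675 to 0.0905, and with the replicate number as a block (0.0924, limma).

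Slc25a12 (ENSMUSG00000027010.16, chr2:71271063-71367749, minus strand), known as aralar and the form of brain and muscle, was at 28.5, 26.7 and 24.1 TPM in the male WT libraries, 34.3, 32.4 and 32.8 in the male KO, 24, 27.2 and 27.3 in the female WT and 33.1, 31.3 and 27.2 in the female KO. In males the groups did not overlap, with a log2 fold change of 0.32 ± 0.075 (SE), adjusted p = 0.0234, a 1.26-fold level (limma, Benjamini-Hochberg). In females they overlapped, with 0.21 ± 0.091 (SE), adjusted p = 0.192 (limma). The male call held without 2 of the 6 libraries in turn. It was lost without male WT replicate 2 (adjusted p = 0.0611) or 3 (0.0683) and without male KO replicate 1 (0.0756) or 3 (0.0674), with log2 fold changes of 0.26 to 0.33, and with no filter on low values (0.0521, limma in each).

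The summed level of the pair was 47.9 ± 3.28 (WT) and 48.4 ± 1.16 TPM (KO) for males and 44.1 ± 1.60 (WT) and 44.8 ± 2.72 TPM (KO) for females (SD, n = 3), closer than the spread of the libraries. The share of Slc25a12 in that sum was 54.1% to 56.6% in the male WT libraries, 67.4% to 69.1% in the male KO, 56.8% to 60.8% in the female WT and 65.2% to 70.6% in the female KO. The shares of WT and KO did not overlap in either sex. This share was computed from genes whose differences are given above and was not tested on its own.

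**Figure D4:**
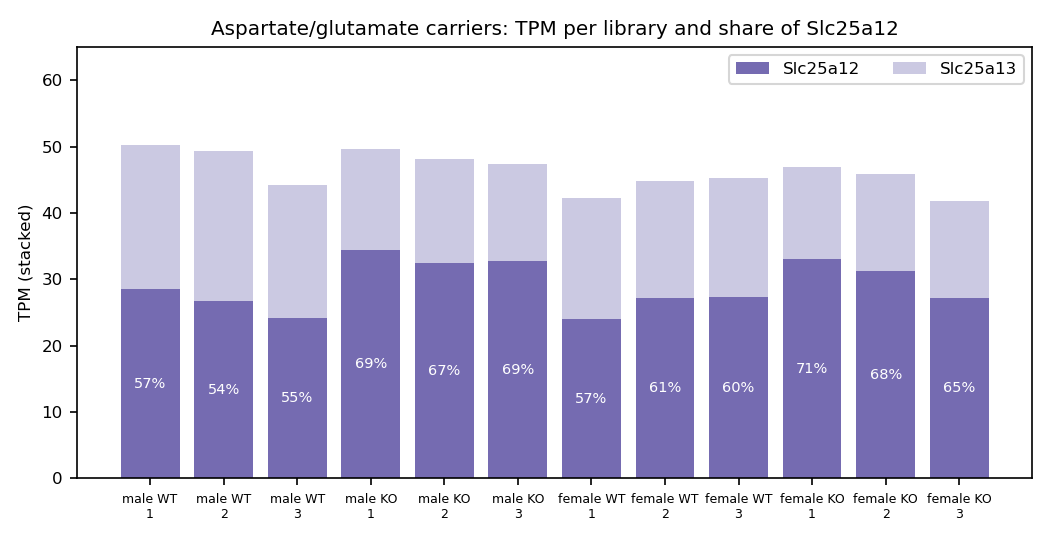
TPM of Slc25a12 and of Slc25a13 in each library, and the share of Slc25a12 in the sum of both in percent, by group. The share lies under 61% in all WT libraries and over 65% in all KO libraries of both sexes.

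The other 5 amino acid carriers tested passed in no comparison as fitted here. Slc25a22, which imports glutamate, was at 49.7, 60.4 and 45.8 TPM (male WT), 43.1, 52.6 and 43.7 (male KO), 45.8, 57.3 and 50.1 (female WT) and 43, 41.6 and 48.5 (female KO). Its gene lies 0.547 Mb from Sirt3 on chromosome 7, and its log2 fold change was -0.15 in males and -0.20 in females (adjusted p = 0.408 and 0.242, limma). Slc25a44, a carrier of branched-chain amino acids, was at 21.2, 22.4 and 20.3 TPM (male WT), 19.7, 19.6 and 19.7 (male KO), 24, 22.9 and 22.2 (female WT) and 20.1, 20.5 and 19.7 (female KO). All its KO libraries were below the WT libraries of the same sex, with -0.11 ± 0.067 (SE), adjusted p = 0.292 in males and -0.19 ± 0.060 (SE), adjusted p = 0.0996 in females (limma). Slc25a38, needed for glycine import in heme synthesis, was at 21, 15 and 21 TPM (male WT), 17, 17.7 and 18.2 (male KO), 18.4, 19.3 and 18.9 (female WT) and 19.1, 17.2 and 21.3 (female KO), with overlap in both sexes.

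Slc25a15, the ornithine carrier of the urea cycle, was at 14.7, 16 and 13.6 TPM (male WT), 11.3, 12.4 and 12.9 (male KO), 11.8, 11.9 and 10.9 (female WT) and 10.6, 10.7 and 10.8 (female KO). Male WT libraries were higher than all others and female KO libraries lower than all others, and its log2 fold change of -0.26 in males did not pass (adjusted p = 0.103, limma) except with all 12 libraries in 1 fit (0.0347). Male against female WT gave 0.33 ± 0.088 (SE), adjusted p = 0.0536, which passed with no mean-variance trend (0.0479), median-of-ratios scaling (0.0369), quantile normalization (0.0363) and all 12 libraries in 1 fit (0.0152, limma in each). Slc25a29, a carrier of basic amino acids, was low, at 1.63, 2.17 and 2.20 TPM (male WT), 2.35, 3.36 and 2.13 (male KO), 2.46, 2.57 and 2.58 (female WT) and 2.46, 3.85 and 3.51 (female KO). Its groups overlapped within each sex.

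Of the glutathione and iron carriers, Slc25a39 rose in males, with the largest of the 3 interactions that passed. Slc25a39 (ENSMUSG00000018677.9, chr11:102402985-102407946, minus strand) was at 144, 153 and 148 TPM in the male WT libraries, 209.9, 204 and 196 in the male KO, 164, 151 and 151 in the female WT and 142, 141 and 141 in the female KO. Every male KO library lay above every other library, and every female KO library below all others, the lowest WT value being 144 TPM in a male library. Group means were 149 ± 4.52 TPM in male WT, 203 ± 7.02 in male KO, 156 ± 7.56 in female WT and 141 ± 0.799 in female KO (SD, n = 3). The log2 fold change was 0.45 ± 0.043 (SE), adjusted p = 5.25e-04 in males, a 1.37-fold level, and -0.14 ± 0.041 (SE), adjusted p = 0.0841 in females, where it did not pass (limma, Benjamini-Hochberg). The interaction was 0.58 ± 0.059 (SE), adjusted p = 4.74e-05 (limma). Over 12 fits that each left out 1 library it ranged from 0.54 to 0.61.

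Slc25a40, its close paralog, was lower in every library, at 12.3, 11.9 and 13.9 TPM (male WT), 11.7, 12.6 and 12.2 (male KO), 13.6, 15.5 and 10.5 (female WT) and 12.2, 12.2 and 14.1 (female KO). Its groups overlapped in both sexes, and the log2 fold change in males was -0.06, with a 95% confidence interval of -0.27 to 0.15. Slc25a39 transcripts share no 31-base stretch with another gene. Mitoferrin-1 (Slc25a37), an iron importer best known from red cell precursors, was at 23.9, 29.2 and 26.5 TPM (male WT), 19, 23.8 and 21.3 (male KO), 22, 24.3 and 22.9 (female WT) and 22.4, 25.6 and 25 (female KO). It was lower in all male KO than in all male WT libraries without passing (-0.30 ± 0.11 (SE), adjusted p = 0.0914), and the interaction was -0.37 with an adjusted p of 0.0959 (limma). The male difference passed with the replicate block (0.0353), quantile normalization (0.0382) and all 12 libraries in 1 fit (0.0347), and the interaction with the block (0.0160), quantile normalization (0.0393) and without male KO replicate 2 (0.0459, limma in each). Mitoferrin-2 (Slc25a28), its widely expressed counterpart, was at 25.5, 29.8 and 27.4 TPM (male WT), 27.3, 29.8 and 26.8 (male KO), 23.6, 24.4 and 26.1 (female WT) and 28.9, 25.3 and 25.2 (female KO), with overlap in both sexes. The summed level of these 4 glutathione and iron carriers was 215 ± 9.13 TPM in male WT, 265 ± 7.47 in male KO, 217 ± 6.45 in female WT and 205 ± 0.969 in female KO, and Slc25a39 made up most of it.

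None of the 7 cofactor carriers passed in any comparison as fitted here. Slc25a17 was at 58.2, 58.3 and 66 TPM (male WT), 66.1, 69.6 and 65.8 (male KO), 67.2, 70.8 and 67.5 (female WT) and 64.6, 66.1 and 70.9 (female KO). Slc25a51, which imports NAD, the cosubstrate of Sirt3, was at 61.3, 55.4 and 59.2 TPM (male WT), 47.9, 61 and 56.8 (male KO), 49.8, 55.7 and 58.1 (female WT) and 53.3, 44.7 and 54.5 (female KO). Its log2 fold change was -0.09 in males and -0.10 in females, with 95% confidence intervals of -0.31 to 0.13 and -0.32 to 0.12. The groups of both carriers overlapped within each sex. Without male WT replicate 3, Slc25a17 passed between the WT sexes (-0.23, adjusted p = 0.0478, limma).

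Slc25a32, linked to folate and FAD import, was at 30.3, 26.2 and 29.7 TPM (male WT), 28.7, 35.3 and 30.9 (male KO), 30.4, 29.3 and 26.8 (female WT) and 34.5, 30.9 and 31.9 (female KO). It was higher in all female KO than in all female WT libraries, at 0.17 ± 0.070 (SE), adjusted p = 0.188 (limma). Of the coenzyme A carriers, Slc25a16 was at 9.53, 10.1 and 8.07 TPM (male WT), 11.2, 11.4 and 9.54 (male KO), 8.87, 11.5 and 9.08 (female WT) and 9.93, 11.2 and 11.5 (female KO). Slc25a42 was at 3.79, 5.00 and 4.11 TPM (male WT), 3.73, 4.65 and 4.43 (male KO), 4.66, 5.02 and 5.56 (female WT) and 5.21, 4.56 and 6.08 (female KO). Both overlapped between genotypes in each sex, as did Slc25a26, the S-adenosylmethionine carrier, at 8.05, 7.63 and 7.19 TPM (male WT), 5.92, 7.10 and 8.46 (male KO), 7.67, 7.88 and 7.21 (female WT) and 7.08, 7.66 and 6.55 (female KO).

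The remaining tested members were carriers of nucleotides, proteins related to the uncoupling proteins, and members without an assigned group, none of which passed as fitted here. Slc25a33, a pyrimidine nucleotide carrier, lay lower in all KO than in all WT libraries of the same sex, at -0.37 ± 0.14 (SE), adjusted p = 0.103 in males and -0.25 ± 0.065 (SE), adjusted p = 0.0528 in females (limma), over a range of 10.9 to 20.6 TPM. It passed in females with no filter on low values (0.0468), no mean-variance trend (0.0437) and quantile normalization (0.0449), and in males with all 12 libraries in 1 fit (0.0280, limma in each). Its transcripts share 13.5% of their 31-base stretches with the predicted gene Gm13068. Slc25a36, which also carries pyrimidine nucleotides, ranged from 29.8 to 37.7 TPM and overlapped between genotypes. Slc25a14 (Ucp5) ranged from 5.72 to 9.47 TPM, Slc25a27 (Ucp4) from 1.57 to 3.00 TPM and Slc25a30 (Kmcp1) from 21.6 to 30.9 TPM. Among these, log2 fold changes lay between -0.28 and -0.04 in males and between -0.18 and 0.02 in females. Slc25a30 was lower in all male KO (21.6, 24.9 and 26.5 TPM) than in all male WT libraries (27.5, 30.5 and 30.9 TPM), with an adjusted p of 0.0761 (limma), and passed with quantile normalization (0.0361) and the replicate block (0.0451). Slc25a46, a protein of the outer membrane with a role in mitochondrial shape, ranged from 16.4 to 18.8 TPM. Slc25a47, known mainly from liver, ranged from 5.73 to 8.98 TPM, Slc25a53 from 1.75 to 7.19 TPM, Slc25a43 from 0.649 to 4.66 TPM and Slc25a35 from 0.796 to 2.20 TPM. The widest male difference of the family was that of Slc25a43, 0.90 ± 0.31 (SE), adjusted p = 0.0819 (limma), with 0.649, 1.04 and 2.13 TPM in its WT libraries against 2.56, 4.66 and 2.38 TPM in KO. It passed with all 12 libraries in 1 fit (0.0225) and without male WT replicate 3 (1.15, adjusted p = 0.0468, limma), where the WT sexes also differed (-0.91, adjusted p = 0.0465, limma).

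The 9 members under a mean of 1 TPM were Slc25a2, Slc25a18, Slc25a21, Slc25a31, Slc25a34, Slc25a41, Slc25a45, Slc25a48 and Slc25a54, and their highest value in any library was 0.581 TPM. They include Slc25a31, the ADP/ATP carrier of the testis, at most 0.148 TPM, and Slc25a18, the second glutamate carrier, at most 0.329 TPM. None was at 0 in every library. With no filter on low values, Slc25a34 passed in males (-0.14, adjusted p = 0.00912) and Slc25a2 between male and female KO (-0.31, adjusted p = 0.00385, limma), both at these low levels.

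Comparison of the sexes within a genotype gave few calls in the family. Between male and female WT, Slc25a24 was higher in males and Slc25a23 lower, 2 of 38 carriers, beside 12.8% of all genes (6.26% higher and 6.56% lower in males). For Slc25a24 the log2 fold change was 0.27 ± 0.047 (SE), adjusted p = 0.0113, with no overlap of the libraries given above (limma, Benjamini-Hochberg). That of Slc25a23 was -0.67 ± 0.15 (SE), adjusted p = 0.0310 (limma), a 0.579-fold level at under 8 TPM. Its call held without 1 of the 6 libraries, male WT replicate 2, and was lost without any other (adjusted p from 0.0720 to 0.10), with no filter on low values (0.0914) and with all 12 libraries in 1 fit (0.0508, limma). Slc25a13, at 0.25 ± 0.069 (SE), adjusted p = 0.0594, passed with median-of-ratios scaling (0.0397), quantile normalization (0.0441) and all 12 libraries in 1 fit (0.0192, limma in each).

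Between male and female KO, Slc25a39 and Slc25a11 were higher in males, 2 of 38, beside 16.6% of all genes (8.17% higher and 8.39% lower in males). Slc25a39 stood at a 1.44-fold level (0.52 ± 0.037 (SE), adjusted p = 1.50e-04, limma) and Slc25a11 at a 1.19-fold level (0.24 ± 0.053 (SE), adjusted p = 0.0232, limma). The call of Slc25a11 was lost without male KO replicate 2 or 3 or female KO replicate 2 or 3 (adjusted p from 0.0612 to 0.0831) with the replicate block (0.0811) and with no mean-variance trend (0.0513, limma). These comparisons share libraries with those of genotype above. The 4 members on chromosome X, Slc25a5, Slc25a14, Slc25a43 and Slc25a53, passed in no comparison as fitted here. Slc25a53 came nearest, lower in male than in female KO at -0.61 ± 0.17 (SE), with an adjusted p just above the threshold (limma). It passed with no mean-variance trend (0.0479), median-of-ratios scaling (0.0436), quantile normalization (0.0360) and without male KO replicate 2 (0.0249, limma in each). Without male WT replicate 1, the lowest of its group, its male difference was -0.93 (adjusted p = 0.0284) and its interaction -1.57 (0.0120, limma).

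A list of 25 other mitochondrial transporters was read in the same fits, of which 23 were tested and Ucp1 and Ucp3 lay under the filter. In males 5 of the 23 rose (21.7%, beside 10.7% of all genes) and none fell (beside 10.9%). In females 2 rose (beside 5.63% of all genes) and 1 fell (beside 5.84%). With both directions together the shares were 21.7% beside 21.6% in males and 13.0% beside 11.5% in females, near those of all genes in these fits. With no filter on low values they were 20.8% beside 10.4% in males and 16.7% beside 5.03% in females. The interaction passed for none, beside 13.0% of all genes (limma, 3 at unadjusted p under 0.05). Ucp2, an inner membrane protein with the same fold as the Slc25 carriers and left out of the members by its symbol alone, rose in both sexes. It went from 226, 250.3 and 246 to 342, 367 and 374 TPM in males and from 255, 267 and 268 to 358, 325 and 343 TPM in females. Its log2 fold change was 0.58 ± 0.053 (SE), adjusted p = 4.40e-04 and 0.37 ± 0.043 (SE), adjusted p = 0.00322 (limma). At a mean of 302 TPM it was more abundant than every Slc25a gene except Slc25a5, Slc25a3 and Slc25a4.

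Mpc1, a subunit of the pyruvate carrier, rose in males by 0.37, Mcub, the inhibitory subunit of the calcium uniporter, by 0.86, its regulator Smdt1 by 0.21 and the outer membrane channel Vdac3 by 0.18 on the log2 scale. In females, Sfxn3, a sideroflexin, rose by 0.22 and the channel Vdac2 fell by 0.17. The female call of Sfxn3 was lost whichever of the 6 libraries was left out (adjusted p from 0.0519 to 0.0693) and with the replicate block (0.0726), and that of Vdac2 on leaving out any library but female KO replicate 1 (0.0559 to 0.0762), with median-of-ratios scaling (0.0567), no mean-variance trend (0.0887) and the replicate block (0.0528, limma in each). The male call of Vdac3 was lost without male WT replicate 1 (0.0527), male KO replicate 1 (0.0566) or 3 (0.0613) and with no mean-variance trend (0.0701, limma in each). Abcb10, an ABC transporter known to stabilize mitoferrin-1, was higher in males than in females in both genotypes, with 19.6, 20.8 and 19.6 TPM (male WT), 20.8, 20.8 and 20.2 (male KO), 14.9, 14.3 and 14.8 (female WT) and 15.2, 15.3 and 15.3 (female KO). In KO, Mpc1 was higher in males (0.34) and Slc8b1, the sodium/calcium exchanger, lower (-0.63). All of these differences had adjusted p under 0.05 in the fits described (limma, Benjamini-Hochberg). That of Slc8b1 was lost on leaving out any library but female KO replicate 2 (0.0544 to 0.0845), with no filter on low values (0.0666), all 12 libraries in 1 fit (0.0556) and the replicate block (0.0685, limma in each).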

How the data were processed

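RNA-seq of poly(A) RNA was analysed in 12 libraries of MEFs, 3 for each sex and Sirt3 genotype as the submitters' labels give them. The authors trimmed the reads and quantified genes on GRCm38 with Salmon (version 1.10.1 in the submitters' processing notes), and deposited 1 table of TPM values, which have the same sum in each library and carry no read totals. Depth per library is therefore unknown here, and no counting interval is given.

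Identifiers were matched to GENCODE vM21 without version suffix (99.2% of 34866 matched). The study tested TPM with a count model. TPM values are not counts, so log2(TPM + 1) values were tested, for genes averaging 1 TPM or more, with limma 3.58.1 in R 4.3.3 (empirical Bayes with a mean-variance trend), with Benjamini-Hochberg adjustment over all 12504 genes and a threshold of 0.05. A fold change on this scale understates that of low genes. KO was compared with WT in each sex and males with females in each genotype, over 6 libraries each, and the interaction over 12. Alternatives were quantile normalization, median-of-ratios scaling, a pseudocount of 0.1, no filter, a filter of 5 TPM, no trend, 1 fit over all libraries, a replicate block and leaving out each library. The libraries share replicate numbers in the labels only. Shared sequence was counted as 31-base stretches of annotated transcripts found in another gene.

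Members that passed any comparison, the 5 most abundant and the tested members of their substrate groups are named with all values, other tested members with their range, except that 1 member and 1 other transporter are counted but not reported here by name. Members and lists were chosen with earlier results of these data known.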

Additional observations from a re-analysis of the deposited data

Results flagged for a closer look

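The effect of the KO label differed between the sexes in 3 carriers, by the interaction term over 12 libraries (limma, Benjamini-Hochberg). For Slc25a39 the male minus female difference of the log2 fold changes was 0.58 (adjusted p = 4.74e-05), from 0.45 in males and -0.14 in females. The female difference did not pass alone (adjusted p = 0.0841, limma). The 3 libraries labelled KO lay above all WT libraries in males and below them in females. For Slc25a24 it was -0.42 (adjusted p = 9.92e-04, limma), from -0.40 and 0.02, with no overlap in males and overlap in females. For Slc25a11 it was 0.31 (adjusted p = 0.00900, limma), from 0.18 and -0.13, neither of which passed alone, with the KO libraries above WT in males and below WT in females. Each of the 3 interactions passed in all 7 other settings and in all 12 fits that left out 1 library.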

How the results depend on the processing

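The male calls of Slc25a39, Slc25a24, Slc25a13 and Slc25a1 and the 3 interactions held under every alternative tried. Carriers called in males were 6, or 15.8%, beside 21.6% of all genes. They were 11 with all 12 libraries in 1 fit (28.9%, beside 26.4% of all genes in that fit). With a library left out they were 4 to 6 (10.5% to 15.8%, beside 14.5% to 18.5%). In females 1 was called (2.63%, beside 11.5% of all genes). It was 2 with no filter (4.26%, beside 5.03%), quantile normalization (5.26%, beside 11.4%) or no trend (5.26%, beside 9.13%). With the replicate block 0 were called (beside 5.36%), and 0 to 1 with a library left out (beside 6.19% to 6.68%). The interaction called 3 (7.89%, beside 13.0%), 5 with quantile normalization (13.2%, beside 13.6%) and 6 with the replicate block (15.8%, beside 12.1%). Leaving out a library gave 3 to 4 (7.89% to 10.5%, beside 10.8% to 12.5%). Between WT sexes 2 were called (5.26%, beside 12.8%) and 1 with no filter (2.13%, beside 5.69%). Median-of-ratios scaling and quantile normalization each gave 4 (10.5%, beside 13.4% and 13.1%). A library left out gave 1 to 3 (2.63% to 7.89%, beside 8.29% to 9.94%). Between KO sexes 2 were called (5.26%, beside 16.6%) and 1 with the replicate block (2.63%, beside 11.2%). There, 1 to 2 were called with a library left out (2.63% to 5.26%, beside 10.6% to 14.6%). Of the other transporters, the replicate block called 1 in females (4.35%, beside 5.36% of all genes) and 2 between KO sexes (8.70%, beside 11.2%). No filter also called 2 between KO sexes (8.33%, beside 7.52%). It called 5 in males (20.8%, beside 10.4%) and 4 in females (16.7%, beside 5.03%). Median-of-ratios scaling and quantile normalization each called 4 in females (17.4%, beside 11.3% and 11.4%). With a library left out, 4 to 6 were called in males (17.4% to 26.1%, beside 14.5% to 18.5%). Leaving out a library gave 1 to 2 in females (4.35% to 8.70%, beside 6.19% to 6.68%) and 0 to 1 for the interaction (beside 10.8% to 12.5%). It gave 1 to 2 between WT sexes (4.35% to 8.70%, beside 8.29% to 9.94%) and 2 to 4 between KO sexes (8.70% to 17.4%, beside 10.6% to 14.6%). Signs turned for Slc25a3, to 0.0045 in females with median-of-ratios scaling and to -0.024 between WT sexes with quantile normalization. With a library left out they turned for Slc25a12 between WT sexes (-0.047 to 0.073), Slc25a23 between KO sexes (-0.011 to 0.35) and Slc25a24 in females (-0.0095 to 0.051), none of which was called. The cause was not tested. Same-numbered libraries did not deviate together (correlations of -0.0571 to 0.0779), so the replicate block pairs libraries by number only. TPM values hide depth, which limits what can be said of carriers near 1 TPM.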
